A study of Mus musculus with 7 samples.

Results

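The genes described here encode the subunits and the assembly factors of the proteasome, the particle that degrades most short-lived proteins of a cell. They were taken by name and biotype as the protein-coding genes with a symbol from Psma to Psmg followed by a number. This gave 48 of the 21615 genes in the count table. The rule uses no measured value, but it was set with earlier results of these data known. By role they comprised 7 subunits of the 20S alpha ring, 4 structural subunits of the 20S beta ring, 3 constitutive catalytic beta subunits, 3 immunoproteasome subunits (Psmb8, Psmb9 and Psmb10), 2 core subunits restricted to other tissues, 6 ATPases and 11 non-ATPase subunits of the 19S regulatory particle, 3 chaperones of the 19S base, 4 chaperones of the 20S core, and 5 activators and inhibitors. A total of 47 members passed the filter on low counts, and the other, Psmb11, had counts in a single library.

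RNA came from megakaryocyte progenitors (MkPs), the cells that give rise to platelet-forming megakaryocytes, which were sorted from the bone marrow of wild-type C57BL/6 mice as CD41+ CD150+ CD117+ cells lacking Sca-1 and lineage markers and then split by surface CD48. Bulk RNA sequencing gave 3 libraries of CD48-/lo MkPs (replicates 1, 3 and 4) and 4 libraries of CD48hi MkPs (replicates 1, 3, 4 and 5), and the study compared their transcriptomes in describing both MkP populations. No treatment or engineered allele was named in the labels. The study's methods list its wild-type mice as C57Bl/6JRj and give a general age of 8 to 20 weeks at the start of experiments, and no age was given for each library. The libraries were made from 5348 to 6497 CD48-/lo cells, against 14033 to 20826 CD48hi cells, so cell number and subset cannot be told apart. Whether each library is a mouse of its own was not stated in the labels, so the p-values reflect the spread between libraries, which may be technical. Fewer cells of a type and less RNA per cell cannot be told apart in such bulk samples.

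Proteins marked with ubiquitin chains are recognised by the 19S regulatory particle, unfolded by its ATPases and threaded into the 20S core, where catalytic beta subunits cut them inside a chamber closed by the alpha rings. Interferon induces an alternative set of catalytic subunits, carried by many blood cells at rest, which replaces the constitutive set in the immunoproteasome and favours peptides that fit MHC class I molecules. In megakaryocytes the proteasome is known for its part in platelet formation, since thrombocytopenia is a common side effect of proteasome inhibitors.

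Levels are given as counts per 1000000 (CPM), scaled by the TMM factors of edgeR. Where values of all libraries are listed, they stand in the order of replicates 1, 3 and 4 for CD48-/lo MkPs and of replicates 1, 3, 4 and 5 for CD48hi MkPs. Totals were 48899037 to 51161449 counts in CD48-/lo libraries, against 51537445 to 69324909 counts in CD48hi libraries. The 7 markers of megakaryocyte progenitors include Itga2b, which encodes CD41, and Pf4, a chemokine stored in platelet granules. All were present in the 7 libraries and 0 of 7 were called. They summed to 3419 to 5799 CPM in the CD48-/lo subset, against 3467 to 4663 CPM in the CD48hi subset. Single markers went in opposite directions, with 4 log2 differences above 0 and 3 below. These were 1.00 for Pf4, -0.70 for Itga2b and -1.27 for Gp1bb, at unadjusted edgeR p-values of 0.0446, 0.0397 and 0.0265. The groups overlapped for each of these genes. Similar sums thus do not show equal levels of each marker. Of the 12 markers of monocytes and dendritic cells, 11 had lower values in CD48-/lo MkPs and 2 were called by edgeR, and their sum was 37.3 to 53.0 CPM, against 91.7 to 143 CPM in CD48hi MkPs. Granulocyte-monocyte progenitor markers (6 genes) summed to 57.1 to 140.2 CPM, against 381 to 557 CPM in CD48hi MkPs. All but Ms4a3 (log2 difference 0.22) were lower in CD48-/lo MkPs, and 1 was called. The 9 erythroid markers summed to 241 to 559 CPM, against 106 to 173 CPM in CD48hi MkPs, with 8 higher and 3 called. Car1 alone stood at 116, 128 and 323 CPM, against 36.0, 99.5, 92.8 and 63.2 CPM. Epor was lower in each CD48-/lo library than in each CD48hi library (log2 difference -0.47). Over all genes tested, edgeR called 0.192%. The 6 basophil and mast cell markers summed to 9.35 to 26.1 CPM in the CD48-/lo subset, against 42.3 to 118 CPM in the CD48hi subset. All but Fcer1a were lower in CD48-/lo MkPs, and 1 was called. Of 7 lymphoid markers 4 were in the table. They summed to 67.4 to 204 CPM in CD48-/lo MkPs, against 83.8 to 227 CPM in CD48hi MkPs. Nkg7 made up most of these sums, at 172, 66.5 and 202 CPM, against 199, 217, 124 and 77.1 CPM. Dntt was at 0 in the 3 CD48-/lo libraries, against 0.25 to 1.65 CPM in CD48hi libraries. Mitochondrially encoded transcripts made up 2.61, 0.482 and 2.91% of counts in CD48-/lo libraries, against 0.138, 0.4, 0.28 and 0.35% in CD48hi libraries. Whether any of these differences takes part in the proteasome values was not tested.

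A pair of libraries stood apart in the proteasome genes. Their 48 transcripts together took 1.1, 1.08 and 1.16% of all counts in CD48-/lo libraries, against 1.17, 1.04, 0.747 and 0.704% in CD48hi libraries, with exact 95% binomial intervals of at most 0.003 percentage points on either side. These intervals cover counting error only, since amplified reads without molecular identifiers are not independent molecules. CD48hi replicates 4 and 5 were thus below the other 5 libraries. Both were below CD48hi replicates 1 and 3 for 32 of the 47 members tested (68.1%), against 26.1% of all genes tested. Medians of the role groups and log2 differences of the members described are also given without this pair. Across all genes, that setting left 0 of 17120 called by edgeR, with 1798 (10.5%) at an unadjusted p under 0.05.

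**Figure D1:**
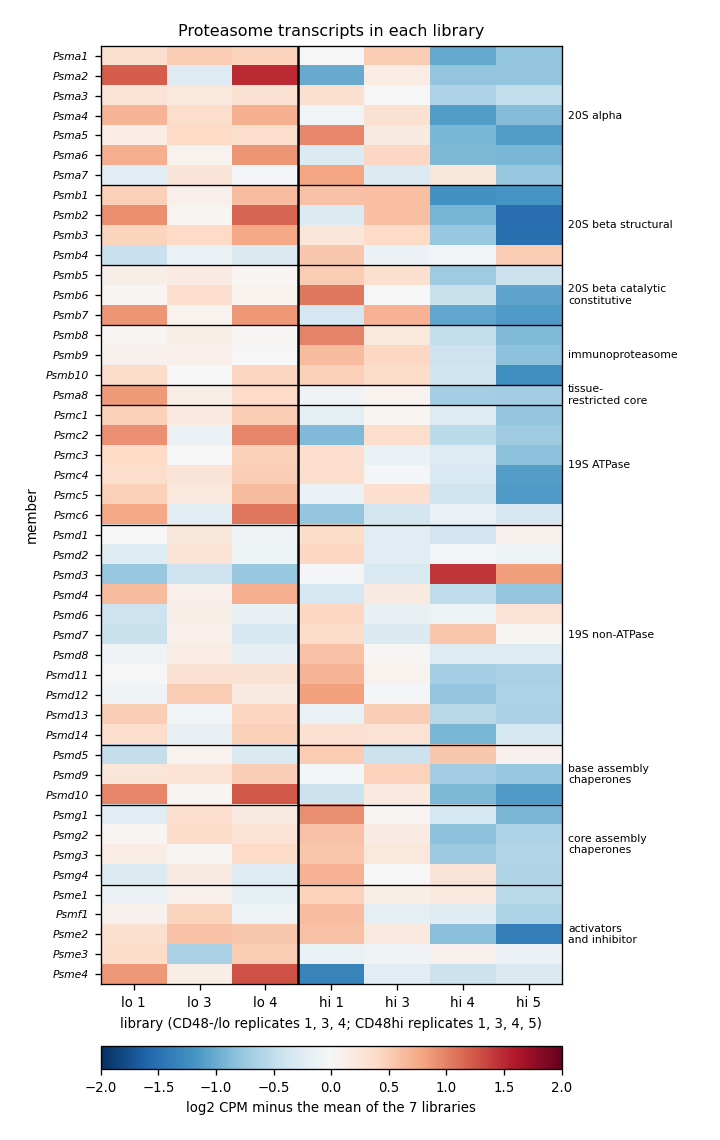
Heat map of the 47 members tested (rows, by role) in the 7 libraries (columns, CD48-/lo left of the black line and CD48hi right of it), coloured by log2 CPM minus the mean of the 7 libraries. CD48hi replicates 4 and 5 are blue through most of the core, the ATPases and the immunoproteasome, CD48hi replicate 1 is red for Psmb6 and Psmb8, and Psmd3 is red in CD48hi replicates 4 and 5 only.

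Between the subsets, no member passed the edgeR quasi-likelihood test at an adjusted p of 0.05 (0 of 47), where 0.192% of all 16653 genes did (0.0841% higher and 0.108% lower in the CD48-/lo subset). The smallest adjusted p among members was 0.163, for Psme4. At an unadjusted p under 0.05, 11 members were higher and 1 was lower in the CD48-/lo subset, which together is 25.5% of members, against 17.2% of all genes (8.37% higher and 8.87% lower). Of these, Psma2, Psma4 and Psma6 belong to the alpha ring, Psmb2 to the beta ring, Psma8 to a testis form of the core, Psmc1, Psmc2 and Psmc6 to the ATPases, Psmd4 and Psmd3 to the non-ATPase subunits, Psmd10 to the chaperones and Psme4 to the activators. DESeq2 called 4 members, Psma2, Psmd10 and Psme4 higher and Psmd3 lower, against 5.86% of 17529 genes (2.67% higher and 3.19% lower), and limma voom with sample quality weights called 1, Psmd10, against 2.36% of 16653 genes.

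Most differences pointed to higher values in CD48-/lo MkPs. The log2 difference of CD48-/lo over CD48hi was above 0 for 36 of 47 members, against 51.7% of all genes, with a median of 0.32 over members and 0.03 over all genes tested. Without CD48hi replicates 4 and 5 the median over members was -0.064, with 22 members above 0 and 25 below, and an unadjusted p under 0.05 was left for 2 members. The groups did not overlap for 7 members. Every CD48-/lo library was above every CD48hi library for Psma4, Psmb3, Psma8, Psmc1 and Psme4, where 7.52% of all genes do so, and below for Psmb4 and Psmd3, where 7.06% of all genes do so.

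**Figure D2:**
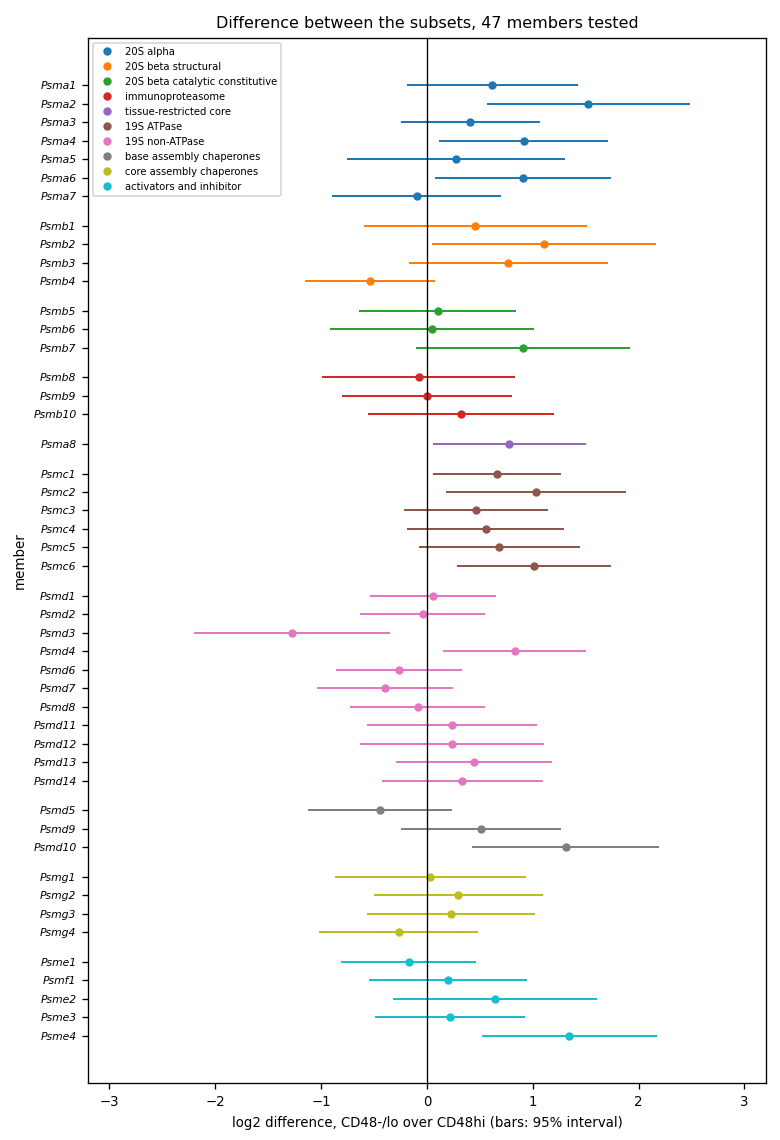
Log2 difference of CD48-/lo over CD48hi MkPs (horizontal axis, points) with its 95% interval from the edgeR fit (bars) for the 47 members tested, coloured by role. The intervals of Psma2, Psmd10 and Psme4 lie furthest to the right, at differences of 1.52, 1.31 and 1.34, that of Psmd3 lies to the left at -1.27, and those of the immunoproteasome subunits span 0.

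Alpha subunits close the ends of the 20S core and hold the gate through which substrates enter. In this ring 6 of 7 members had a log2 difference above 0, with a median of 0.62, but 0 were called by edgeR, and the median was 0.14 without CD48hi replicates 4 and 5. Psma2 (Ensembl span chr13:14613240-14674236 on mm10) stood at 309, 112 and 376 CPM in the CD48-/lo subset, against 66.2, 149, 77.3 and 77.2 CPM in the CD48hi subset. CD48-/lo replicates 1 and 4 were the highest of all 7 libraries, while CD48-/lo replicate 3 was below CD48hi replicate 3, so the groups overlapped. The log2 difference was 1.52 ± 0.43 (SE), which is 2.88-fold, with an edgeR adjusted p of 0.169 and a DESeq2 adjusted p of 0.0233. Psma4 stood at 237, 190.2 and 244 CPM in the CD48-/lo subset, against 142, 183, 68.6 and 81.5 CPM in the CD48hi subset, without overlap, and its log2 difference was 0.91 ± 0.36 (edgeR adjusted p = 0.248). Psma7, highest of the members per length on the mean of all 7 libraries, was at 587, 809.7 and 658 CPM in the CD48-/lo subset, against 1174, 559, 795 and 399 CPM in the CD48hi subset, and here the highest and the lowest library were both CD48hi (log2 difference -0.10 ± 0.36). The log2 differences of Psma2, Psma4 and Psma7 were 1.299, 0.45 and -0.35 without CD48hi replicates 4 and 5.

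The structural beta subunits Psmb1 to Psmb4 build the inner rings and do not cut. Of these 4, 3 had higher values in CD48-/lo MkPs, with a median log2 difference of 0.61, or 0.022 without CD48hi replicates 4 and 5. Psmb2 was measured at 437, 236 and 512 CPM in the CD48-/lo subset, against 189, 346, 119.97 and 79.3 CPM in the CD48hi subset. Its lowest libraries were CD48hi replicates 4 and 5, and CD48hi replicate 3 was above CD48-/lo replicate 3 (log2 difference 1.11 ± 0.47, edgeR adjusted p = 0.273). Psmb4 differed from the other structural subunits in that it was lower in each CD48-/lo library, at 191, 236 and 211 CPM in the CD48-/lo subset, against 375, 238, 251 and 369 CPM in the CD48hi subset. The lowest CD48hi value lay just above the highest CD48-/lo value, and the log2 difference of -0.54 ± 0.27 did not pass the test (edgeR adjusted p = 0.337). Psmb2 and Psmb4 had log2 differences of 0.56 and -0.53 without CD48hi replicates 4 and 5.

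The cutting itself is done by Psmb6, Psmb7 and Psmb5, the caspase-like, trypsin-like and chymotrypsin-like subunits of the constitutive core. Their median log2 difference was 0.10, or -0.31 without CD48hi replicates 4 and 5 and 0.52 without CD48hi replicate 1, and none of the 3 had an unadjusted p under 0.05. Psmb5 was at 94.6, 97.4 and 89.6 CPM in the CD48-/lo subset, against 124, 108, 53.2 and 64.3 CPM in the CD48hi subset. Psmb6 was at 358, 439 and 365 CPM in the CD48-/lo subset, against 721, 350.1, 257 and 169 CPM in the CD48hi subset. For both genes the CD48-/lo libraries lay close together and inside the range of the CD48hi libraries, with log2 differences of 0.10 ± 0.33 and 0.05 ± 0.43 and edgeR adjusted p-values of 0.902 and 0.966. Psmb7 stood at 102, 57.8 and 101 CPM in the CD48-/lo subset, against 43.6, 89.6, 26.7 and 25.1 CPM in the CD48hi subset, with CD48-/lo replicate 3 and CD48hi replicate 3 breaking the order of the groups (log2 difference 0.91 ± 0.45, edgeR adjusted p = 0.325). For Psmb5, Psmb6 and Psmb7 the log2 differences were -0.31, -0.47 and 0.38 without CD48hi replicates 4 and 5.

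The immunoproteasome subunits Psmb9 (LMP2), Psmb10 (MECL-1) and Psmb8 (LMP7) take the places of Psmb6, Psmb7 and Psmb5. None of the 3 differed between the subsets by more than the spread between libraries, and their median log2 difference was 0.00, against 0.03 for all genes. Psmb8 was measured at 316, 334 and 313 CPM in the CD48-/lo subset, against 613, 355, 218 and 166 CPM in the CD48hi subset. The 3 CD48-/lo libraries lay within 313 to 334 CPM, while the CD48hi libraries lay on both sides of them and held the highest and the lowest values. The log2 difference was -0.08 ± 0.41 (95% interval -0.98 to 0.83, edgeR adjusted p = 0.944).

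Psmb9 showed the same layout, at 144, 146 and 136 CPM in the CD48-/lo subset, against 210.2, 179.6, 101 and 76.3 CPM in the CD48hi subset. Its log2 difference was 0.00 ± 0.36 (95% interval -0.79 to 0.79, edgeR adjusted p = 1). Psmb10 was at 108, 83.2 and 114 CPM in the CD48-/lo subset, against 117, 108, 64.0 and 35.8 CPM in the CD48hi subset, with a log2 difference of 0.32 ± 0.39 (95% interval -0.54 to 1.19, edgeR adjusted p = 0.699). In all 3 genes CD48hi replicates 1 and 3 were above CD48hi replicates 4 and 5. The median of the group was -0.47 without the last-named libraries, and then Psmb8, Psmb9 and Psmb10 stood at log2 differences of -0.60, -0.47 and -0.16. As the interval of Psmb8 ran from 0.506-fold to 1.77-fold, these values do not show that the subsets had equal levels.

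**Figure D3:**
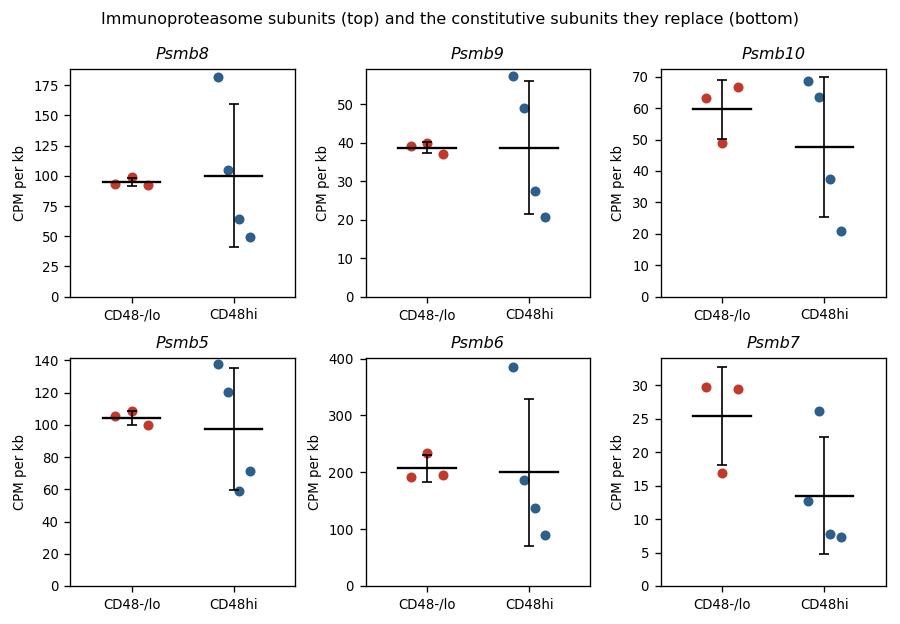
CPM per kb of gene length of the immunoproteasome subunits Psmb8, Psmb9 and Psmb10 (top) and of Psmb5, Psmb6 and Psmb7, whose places they take (bottom), in CD48-/lo (red) and CD48hi (blue) libraries, with the mean (line) and SD (bar, n = 3 and n = 4). Psmb8 lies at 92.6 to 98.6 CPM per kb in CD48-/lo MkPs, inside the range of 49.2 to 181 CPM per kb in CD48hi MkPs, and Psmb9 and Psmb5 have the same narrow and wide spreads.

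Levels of subunits that compete for the same place were compared per length, as the ratio of CPM per kb in each library. Psmb8 over Psmb5 was 0.887, 0.910 and 0.929 in CD48-/lo MkPs, against 1.32, 0.871, 1.09 and 0.687 in CD48hi MkPs. Psmb9 over Psmb6 was 0.205, 0.170 and 0.190 in CD48-/lo MkPs, against 0.149, 0.262, 0.201 and 0.231 in CD48hi MkPs. Psmb10 over Psmb7 was 2.12, 2.89 and 2.26 in CD48-/lo MkPs, against 5.38, 2.43, 4.80 and 2.86 in CD48hi MkPs. The groups overlapped for each of the 3 pairs. In all 7 libraries Psmb10 was above Psmb7 and Psmb9 below Psmb6, with and without division by the deposited length. Without length, the lowest ratio of Psmb10 to Psmb7 was 1.06, in CD48-/lo replicate 1. Deposited lengths are 3421 bases for Psmb7 and 1705 bases for Psmb10, against annotated transcripts of 1160 and 1311 bases. Ratios per transcript length were not taken, so which of Psmb10 and Psmb7 was higher by that length in each library is not settled. Of the 50-base windows of the Psmb7 transcript, 28.1% also occur in Nek6. Which of Psmb8 and Psmb5 was higher turned on the length. Without it the ratio was 3.34 to 3.49 in CD48-/lo MkPs, against 2.58 to 4.96 in CD48hi MkPs, and the deposited length of Psmb8 (3381 bases) exceeds its annotated transcript searched for shared windows (1628 bases), while for Psmb5 both are 899 bases.

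Psmb9 and Psmb8 lie in the MHC region of chromosome 17 with the peptide transporter genes Tap1, which is between them, and Tap2, which follows Psmb8. Psmb9 (chr17:34181987-34187764, minus strand) and Tap1 are read away from each other, with RefSeq starts 226 bases apart. The 225 bases between them are shown because a single stretch lies upstream of both RefSeq starts. By the Ensembl spans this stretch lies inside Psmb9 and reaches the start of Tap1 at 34187553. Psmb8 (chr17:34197721-34201454, plus strand) and Psmb10 (chr8:105935735-105938444, minus strand, on chromosome 8) are shown for comparison with the 250 bases before their RefSeq starts. By the Ensembl spans the Psmb8 stretch lies inside its gene, and the Psmb10 stretch partly overlaps its gene. Sequences are from RefSeq on GRCm38.p6, and capitals mark pattern matches on either strand. In the Psmb9-Tap1 stretch the match is to TGANNNNGC, a loose form of the antioxidant response element read by the NFE2L factors. This pattern occurs in 41.3% of the promoter windows of all genes, so the match does not establish such a site. In Psmb8 the match is to TTCNNNGAA, the core of a STAT site, while the Psmb10 window holds no match.
Psmb9-Tap1 (chr17:34187331-34187555, plus strand): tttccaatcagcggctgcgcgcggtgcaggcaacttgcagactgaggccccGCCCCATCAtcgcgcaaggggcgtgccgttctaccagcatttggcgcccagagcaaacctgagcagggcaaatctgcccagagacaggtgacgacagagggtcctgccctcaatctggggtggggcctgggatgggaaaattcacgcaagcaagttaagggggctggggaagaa
Psmb8 (chr17:34197945-34198194, plus strand): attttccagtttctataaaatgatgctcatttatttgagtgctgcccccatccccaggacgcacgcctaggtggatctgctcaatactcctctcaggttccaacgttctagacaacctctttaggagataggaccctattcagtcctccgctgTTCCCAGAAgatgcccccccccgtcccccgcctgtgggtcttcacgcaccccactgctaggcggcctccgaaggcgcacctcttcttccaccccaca
Psmb10 (chr8:105938393-105938642, minus strand): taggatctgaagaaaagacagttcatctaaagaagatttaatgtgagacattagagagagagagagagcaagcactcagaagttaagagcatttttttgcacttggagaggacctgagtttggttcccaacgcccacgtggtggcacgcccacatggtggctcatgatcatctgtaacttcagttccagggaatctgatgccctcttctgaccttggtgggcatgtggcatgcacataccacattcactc

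Tap1 was compared with Psmb9 for the stretch they share. Tap1, a chain of the transporter that carries proteasome products into the endoplasmic reticulum, stood at 158, 177 and 169 CPM in the CD48-/lo subset, against 310.5, 231, 376 and 315 CPM in the CD48hi subset. All CD48-/lo values were below all CD48hi values, with a log2 difference of -0.88 ± 0.26, and the edgeR adjusted p was 0.181, the DESeq2 adjusted p 0.015 and the limma voom adjusted p 0.0499. Without CD48hi replicates 4 and 5 the log2 difference was -0.70. The ratio of Tap1 to Psmb9 per length, picked after its values were seen, was 0.734, 0.810 and 0.832 in CD48-/lo MkPs, against 0.987, 0.859, 2.49 and 2.76 in CD48hi MkPs. The groups did not overlap, but CD48hi replicates 1 and 3 were close to the CD48-/lo libraries and only CD48hi replicates 4 and 5 were far above them. The annotated gene spans overlap, 12.5% of the 50-base windows of the Psmb9 transcript also occur in Tap1 transcripts, and the share of reads lost or exchanged there was not tested.

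**Figure D4:**
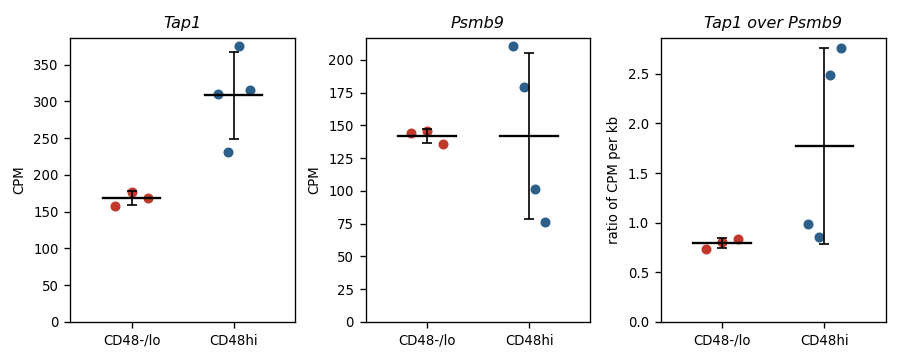
CPM of Tap1 and Psmb9 and the ratio of their CPM per kb in CD48-/lo (red) and CD48hi (blue) libraries, with the mean (line) and SD (bar, n = 3 and n = 4). Tap1 lies at 158 to 177 CPM in CD48-/lo MkPs and at 231 to 376 CPM in CD48hi MkPs, and the ratio reaches 2.49 and 2.76 in CD48hi replicates 4 and 5.

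Both core subunits known from other tissues were near the bottom of the range. Psma8, which replaces an alpha subunit in the core of spermatocytes, was at 33.2, 19.9 and 23.9 CPM in the CD48-/lo subset, against 17.6, 19.4, 11.5 and 11.4 CPM in the CD48hi subset, from 598 to 1763 counts in a library. Each CD48-/lo value was above each CD48hi value, but by little between CD48-/lo replicate 3 and CD48hi replicate 3 (log2 difference 0.78 ± 0.32, edgeR adjusted p = 0.264), and the log2 difference was 0.47 without CD48hi replicates 4 and 5. Psmb11, the catalytic subunit of the thymoproteasome of cortical thymic epithelium, had 15 counts in CD48hi replicate 5 (0.249 CPM of the unscaled total, exact 95% interval 0.139 to 0.411) and 0 counts in the other 6 libraries, where 0 counts allow up to 0.0433 to 0.0614 CPM (3 counts).

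The ATPases Psmc1 to Psmc6 form the ring that unfolds substrates. All 6 had a log2 difference above 0, between 0.46 and 1.03, with a median of 0.68, although 0 were called by edgeR, and 3 had an unadjusted p under 0.05. Psmc6 was measured at 342, 173 and 415 CPM in the CD48-/lo subset, against 118, 155, 184 and 159 CPM in the CD48hi subset. CD48-/lo replicates 1 and 4 were above all others and CD48-/lo replicate 3 lay within the range of the CD48hi libraries (log2 difference 1.01 ± 0.32, edgeR adjusted p = 0.199). Psmc2 stood at 200.04, 97.1 and 208 CPM in the CD48-/lo subset, against 57.4, 135, 72.8 and 64.4 CPM in the CD48hi subset, with the same libraries on top and CD48hi replicate 3 above CD48-/lo replicate 3 (log2 difference 1.03 ± 0.38, edgeR adjusted p = 0.239). CD48-/lo replicate 3 was the lowest library of its group for 6 of 6 ATPases, where this holds for 37.7% of all genes. Without CD48hi replicates 4 and 5 the median of the ATPases was 0.39, with Psmc6 at 1.18 and Psmc2 at 0.80.

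Among the 11 non-ATPase subunits of the 19S particle, 6 were higher and 5 lower in the CD48-/lo subset (median log2 difference 0.06), but 2 were higher and 9 lower without CD48hi replicates 4 and 5 (median -0.21). Psmd4, a receptor for ubiquitin chains, was at 222, 154 and 237 CPM in the CD48-/lo subset, against 113, 162, 100.5 and 84.2 CPM in the CD48hi subset. CD48-/lo replicates 1 and 4 were highest and CD48hi replicate 3 was above CD48-/lo replicate 3, so the groups overlapped (log2 difference 0.83 ± 0.30, or 0.56 without CD48hi replicates 4 and 5, edgeR adjusted p = 0.233). Psmd3, a subunit of the lid, went the opposite way, at 116, 146 and 115 CPM in the CD48-/lo subset, against 189.9, 158, 521 and 346 CPM in the CD48hi subset. Each CD48-/lo library was below each CD48hi library, and CD48hi replicates 4 and 5, the lowest libraries for most members, were here the highest. The log2 difference of -1.27 ± 0.41 had an edgeR adjusted p of 0.203 and a DESeq2 adjusted p of 0.0397, and it was -0.48 without CD48hi replicates 4 and 5.

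The remaining subunits of the lid and base had smaller differences. Psmd1 and Psmd2, the large scaffold subunits of the base, had log2 differences of 0.06 and -0.04. Psmd14, the deubiquitinase that removes ubiquitin chains from substrates, had a log2 difference of 0.33 ± 0.34 and Psmd7, its partner in the lid, of -0.40 ± 0.28. The other 5 members (Psmd6, Psmd8, Psmd11, Psmd12 and Psmd13) lay between -0.27 and 0.44. Psmd14 and Psmd7 were at -0.057 and -0.28 without CD48hi replicates 4 and 5, Psmd1 and Psmd2 at -0.064 and -0.14, and the other 5 between -0.36 and 0.089.

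Assembly of the base needs the chaperones Psmd10 (gankyrin), Psmd9 and Psmd5, which bind its ATPases. Psmd10 was at 116, 60.5 and 140.04 CPM in the CD48-/lo subset, against 43.6, 67.8, 31.7 and 26.9 CPM in the CD48hi subset. CD48-/lo replicates 1 and 4 were above all other libraries and CD48-/lo replicate 3 was below CD48hi replicate 3 (log2 difference 1.31 ± 0.39, 2.48-fold, edgeR adjusted p = 0.181, DESeq2 adjusted p = 0.0405, limma voom adjusted p = 0.0478). Psmd9 stood at 55.9, 58.1 and 66.8 CPM in the CD48-/lo subset, against 46.6, 65.0, 29.2 and 28.0 CPM in the CD48hi subset, with CD48hi replicates 4 and 5 below the other 5 libraries (log2 difference 0.51 ± 0.34, edgeR adjusted p = 0.447). Psmd5 had a log2 difference of -0.44 ± 0.30 in the other direction. The median over the 3 genes was 0.51, or 0.10 without CD48hi replicates 4 and 5, where Psmd10, Psmd9 and Psmd5 stood at 0.91, 0.10 and -0.34.

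The chaperones of the core, Psmg1 to Psmg4, act as pairs in building the alpha ring. Their median log2 difference was 0.13, or -0.32 without CD48hi replicates 4 and 5, and 0 of 4 had an unadjusted p under 0.05. Psmg2, the partner of Psmg1, stood at 113, 141 and 133 CPM in the CD48-/lo subset, against 165, 123, 61.8 and 71.5 CPM in the CD48hi subset. Psmg4, the partner of Psmg3, was at 53.9, 74.4 and 54.6 CPM in the CD48-/lo subset, against 106, 65.2, 78.5 and 43.1 CPM in the CD48hi subset. For both genes CD48hi replicate 1 was highest and the groups overlapped (log2 differences 0.30 ± 0.36 and -0.27 ± 0.33, edgeR adjusted p = 0.695 and 0.709). Psmg2 and Psmg4 were at -0.16 and -0.50 without CD48hi replicates 4 and 5.

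Other caps can take the place of the 19S particle. Psme1 and Psme2 encode the PA28 activator, which like the immunoproteasome is raised by interferon. Psme1 was at 262, 299.7 and 248 CPM in the CD48-/lo subset, against 388, 306, 326 and 194 CPM in the CD48hi subset. Psme2 was at 61.5, 73.8 and 71.3 CPM in the CD48-/lo subset, against 73.7, 56.3, 27.6 and 18.8 CPM in the CD48hi subset. For Psme1 the highest and the lowest library were both CD48hi, whereas Psme2 was lowest in CD48hi replicates 4 and 5 (log2 differences -0.17 ± 0.28 and 0.64 ± 0.43, edgeR adjusted p = 0.786 and 0.457). Their log2 differences were -0.37 and 0.076 without CD48hi replicates 4 and 5. Psme2 is an uncertain measurement, since 59.3% of the 50-base windows of its transcript occur also in Psme2b, a protein-coding copy on chromosome 11. Psme2b outnumbered it per length by 5.35, 4.93 and 5.2 times in CD48-/lo MkPs, against 4.97, 5.09, 4.35 and 4.54 times in CD48hi MkPs. Without division by length the ratio was 2.34 to 2.54 in CD48-/lo MkPs, against 2.06 to 2.41 in CD48hi MkPs. The deposited length of Psme2 (1764 bases) exceeds its annotated transcript (962 bases).

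Psme4 (PA200), a nuclear activator known for the breakdown of acetylated histones in spermatogenesis and after DNA damage, had the smallest adjusted p of all members. It was measured at 33.3, 20.0 and 44.1 CPM in the CD48-/lo subset, against 7.17, 15.7, 13.5 and 14.9 CPM in the CD48hi subset. Each CD48-/lo library was above each CD48hi library, although CD48-/lo replicate 3 was nearer to the CD48hi libraries than to the rest of its group. The log2 difference was 1.34 ± 0.37, which is 2.54-fold, with an edgeR adjusted p of 0.163 and a DESeq2 adjusted p of 0.0215, and it was 1.503 without CD48hi replicates 4 and 5. Psme3, the nuclear PA28 gamma, stood at 49.0, 24.0 and 54.1 CPM in the CD48-/lo subset, against 34.7, 36.1, 40.0 and 34.9 CPM in the CD48hi subset, with CD48-/lo replicate 3 the lowest of all libraries (log2 difference 0.22 ± 0.32, edgeR adjusted p = 0.752). Psmf1 (PI31), first described as a proteasome inhibitor, was at 84.7, 108 and 74.9 CPM in the CD48-/lo subset, against 121, 70.3, 67.2 and 51.4 CPM in the CD48hi subset, with CD48hi replicate 1 on top and CD48hi replicate 5 at the bottom (log2 difference 0.20 ± 0.33, edgeR adjusted p = 0.787). Psme3 and Psmf1 were at 0.25 and -0.11 without CD48hi replicates 4 and 5, and the median of the 5 activators and inhibitors was 0.22 with all libraries and 0.076 without this pair.

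**Figure D5:**
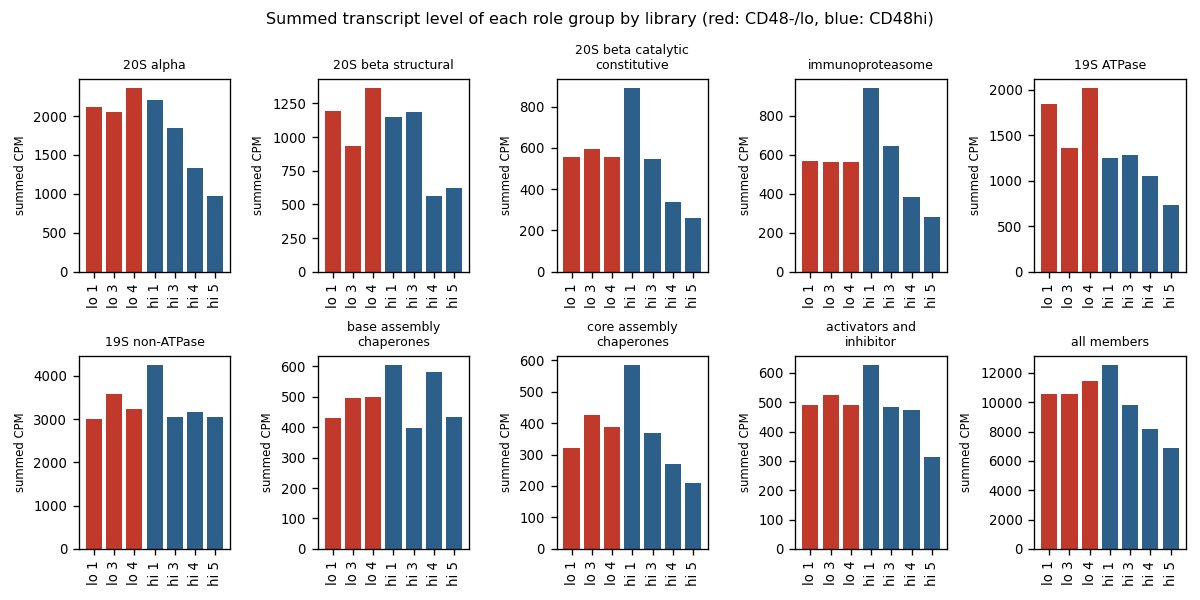
Summed CPM of the members of each role (panels, vertical axis from 0) in each CD48-/lo (red) and CD48hi (blue) library. CD48hi replicates 4 and 5 have the lowest sums for the alpha ring (1332 and 976 CPM), the constitutive catalytic subunits (337 and 258 CPM) and the immunoproteasome (384 and 278 CPM), whereas the non-ATPase subunits stay at 2998 to 3568 CPM except in CD48hi replicate 1 (4236 CPM).

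Which libraries held the extremes differed between members and all genes. CD48hi replicate 5 was the lowest of the 7 libraries for 24 members (51.1%), against 18.9% of all genes tested, and CD48hi replicate 4 for 12 (25.5%), against 14.8%. CD48hi replicate 1 was the highest library for 21 members (44.7%), against 15.9% of all genes, and CD48-/lo replicate 4 for 18 (38.3%), against 18.5%.

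Most members fell into 2 layouts over the libraries, described after their values were seen, which cut across the particle. The second of these was about as common among all genes. For 18 members (38.3%, against 12.2% of all genes) CD48hi replicate 1 was the highest CD48hi library and CD48-/lo replicate 3 the highest CD48-/lo library. They included Psmb5, Psmb6, Psmb8 and Psmb9 of the catalytic set, Psma5 and Psma7, Psmb4, Psmd1, Psmd2, Psmd6, Psmd8 and Psmd12, the chaperones Psmg1, Psmg2 and Psmg4, and Psme1, Psme2 and Psmf1. For 17 members (36.2%, against 32.6% of all genes) neither held and CD48-/lo replicate 3 was the lowest of its group. Here belonged Psma2, Psma4, Psma6 and Psma8, Psmb1, Psmb2, Psmb3 and Psmb7, Psmc1, Psmc2, Psmc5 and Psmc6, Psmd4, Psmd10 and Psmd13, and Psme3 and Psme4. This layout held the 11 members that were higher in CD48-/lo MkPs at an unadjusted p under 0.05. The layout and those differences come from the same values of the same libraries, so neither backs the other. CD48-/lo replicates 1 and 4, above CD48-/lo replicate 3 in this layout, were those with 2.61 and 2.91% of mitochondrial counts, against 0.482% in CD48-/lo replicate 3. The part of that share in the result was not tested. The median gene length was 2429 bases for the 18 members and 2808 bases for the 17, and the log2 difference of members had a Pearson correlation of -0.03 with log2 gene length, across 47 genes that share the libraries.

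Members were not at equal transcript levels, and neither were the alpha subunits Psma1 to Psma7, which sit in the core in equal number. Among these 7, Psma7 was highest and Psma3 lowest per length, at 232 and 23.5 CPM per kb over the 7 libraries. Per length, the highest means over the 7 libraries were those of Psma7, Psmb2, Psmd7, Psmb6 and Psma6, at 232, 228, 216, 203 and 178 CPM per kb, and the gaps between neighbours in this order were smaller than the SD of each of these genes within the CD48hi subset. The order per deposited length differed between the subsets. Psmb2 was highest in CD48-/lo MkPs, at 328 ± 118 CPM per kb, against 153 ± 97.6 CPM per kb in CD48hi MkPs (SD, n = 3 and n = 4). Psmd7 averaged 183 ± 38.1 CPM per kb in CD48-/lo MkPs, against 241 ± 60.1 CPM per kb in CD48hi MkPs, where it was highest. Psma7 averaged 223 ± 37.0 CPM per kb in CD48-/lo MkPs, against 238 ± 109.5 CPM per kb in CD48hi MkPs. The catalytic subunits were far apart. Psmb6 averaged 207 ± 24.1 CPM per kb in CD48-/lo MkPs, against 199.95 ± 129.7 CPM per kb in CD48hi MkPs, while Psmb7 averaged 25.4 ± 7.34 CPM per kb, against 13.5 ± 8.80 CPM per kb. At the low end of the tested members were Psma8, Psmd9 and Psme4 with 7.84, 6.89 and 2.53 CPM per kb over the 7 libraries. The order depends on the deposited gene lengths. These exceed the annotated transcript searched for shared windows for Psmd9 (7248 against 2597 bases) and Psma7 (3071 against 1157 bases). Without division by length Psma7 was highest in both subsets, at 685 CPM in CD48-/lo MkPs and 732 CPM in CD48hi MkPs. Of the 10 highest members per length, 4 were also among the 10 highest without division by length.

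Some transcripts share sequence with processed copies, which can take or lose uniquely aligned reads. In 50-base windows of the annotated transcript, 57.1% for Psmb5, 55.8% for Psmb3 and 55.4% for Psma5 occurred in transcripts of other genes, while no window did so for 23 members, among them Psmb2, Psmc2, Psmd3, Psmd4, Psmd10 and Psme4. Of the proteasome pseudogenes in the table, 4 had 4233 counts together over the 7 libraries, most of them in Psmb6-ps2 (3690 counts).

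A list of 38 further genes of the pathway, 37 of them in the table, showed no common direction, with 17 higher and 20 lower in the CD48-/lo subset and a median log2 difference of -0.10. By edgeR 1 of 37 was called, against 0.192% of all 16653 genes tested. Irf8, an interferon-responsive transcription factor that drives monocyte and dendritic cell fate, fell to 2.86, 0.935 and 1.21 CPM in the CD48-/lo subset, against 14.1, 23.8, 44.2 and 27.4 CPM in the CD48hi subset. The groups were far apart, and the log2 difference was -4.03 ± 0.56 (edgeR adjusted p = 0.0321). Irf8 is itself one of the 12 markers of monocytes and dendritic cells, whose sum was higher in CD48hi MkPs, and the part of such cells in its value was not tested. Its edgeR adjusted p was 0.308 without CD48hi replicates 4 and 5, and with a single library left out it was 0.136 without CD48-/lo replicate 4, 0.071 without CD48hi replicate 3 and 0.0732 without CD48hi replicate 5.

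Of the 9 genes of immunoproteasome control and peptide loading, 7 had lower values in CD48-/lo MkPs. DESeq2 called Irf8, Tap1 and Tap2, all lower, against 5.86% of 17529 genes (3.19% lower). B2m, the light chain of MHC class I, stood at 4569, 3056 and 5199 CPM in the CD48-/lo subset, against 1559, 4704, 1249 and 1218 CPM in the CD48hi subset, with CD48hi replicate 3 on the level of the CD48-/lo libraries (log2 difference 0.97 ± 0.47, or 0.44 without CD48hi replicates 4 and 5, edgeR adjusted p = 0.313). Of 15 genes of ubiquitin and its shuttles, 9 were higher and 6 lower, and 0 were called. Ufd1, a cofactor of the segregase Vcp, was at 103, 78.0 and 118 CPM in the CD48-/lo subset, against 53.9, 78.8, 44.3 and 37.2 CPM in the CD48hi subset, with CD48hi replicate 3 level with CD48-/lo replicate 3 (log2 difference 0.90 ± 0.32, or 0.58 without CD48hi replicates 4 and 5, edgeR adjusted p = 0.223). The 4 genes that control proteasome transcription, Nfe2l1 with its processing enzymes Ddi2 and Ngly1 and the related Nfe2l2, were not called and had a median log2 difference of -0.49. Nfe2l1, named after its values were seen, was at 39.7, 23.0 and 27.0 CPM in the CD48-/lo subset, against 18.2, 41.6, 54.8 and 95.3 CPM in the CD48hi subset, so that CD48hi replicate 5, lowest for most members, was highest for this activator. Among 9 other components and assembly factors of the particle, 5 were higher and 4 lower and 0 were called, including Pomp, the maturation factor of the core, also named after its values were seen, at 264, 199 and 271 CPM in the CD48-/lo subset, against 259, 218, 117 and 64.9 CPM in the CD48hi subset.

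Promoter windows from 250 bases before to 50 bases after the RefSeq start were available for 40 members (43 windows). TGANNNNGC, a loose form of the antioxidant response element searched on both strands, lay in 58.1% of member windows, against 41.3% of 32851 windows of all genes. The core of AP-1 and NF-E2 sites, TGACTCA or TGAGTCA, lay in 2.33% (the window of Psmd9), against 5.2%. The interferon-stimulated response element, GAAA repeated after any 2 bases, lay in 11.6%, against 3.44%, in the windows of Psmd4, Psmd9, Psmb3, Psmg4 and the interferon-raised Psme1. The STAT core TTCNNNGAA lay in 6.98% (Psmd2, Psmg1 and Psmb8), against 8.3%. These are matches of letters in one window, and binding was not measured.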

How the data were processed

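RNA was measured in 7 libraries, 3 of CD48-/lo MkPs and 4 of CD48hi MkPs, made from poly(A)-primed, template-switched and PCR-amplified cDNA that was then tagmented, a protocol that does not mark strand. The authors aligned reads to mm10 with GSNAP and Ensembl 98 splice sites and used featureCounts (2.0.1) to count reads aligned to a single place, as given in their processing notes and methods. The deposited values used here are raw read counts, whole numbers with no normalization. The table held 21615 genes with at least 11 counts in sum, and genes under that total were not seen. For the strand setting of featureCounts nothing was given in the sources used here, and overlapping genes cannot be told apart. Other deposited tables, which hold the authors' normalised values and their DESeq2 (1.30.1) fold changes and p-values, were not used.

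The test was edgeR 4.0.16 (R 4.3.3) with filterByExpr (16653 genes, 99.95% of counts), TMM scaling, a quasi-likelihood F test between the subsets without covariates (CD48-/lo over CD48hi) and Benjamini-Hochberg adjustment over all genes tested, with a threshold of 0.05. Log2 differences use a prior count of 0.125, and 95% intervals come from the same fit. CPM per kb divides by the deposited gene length. DESeq2 1.42.0, limma 3.58.1 (voom with sample quality weights), RLE scaling, unscaled totals, no filter, a stricter filter (1 CPM in 3 libraries), thinning to the smallest total, exclusion of ribosomal protein, haemoglobin and mitochondrial genes, a threshold of 0.1, the replicate number as a block and leaving out each library were alternatives. The tests were also run on simulated counts with known changes. Library pairs had Spearman correlations across genes of 0.921 to 0.957, and no library was taken for a copy of another. Shared windows were searched in GENCODE M21 transcripts, and promoters were taken from RefSeq (GRCm38.p6).

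The genes given in full are the immunoproteasome subunits, their constitutive counterparts, the activators and Psmf1, any member called, the 2 members of each other role with the smallest unadjusted p, and of the pathway list any called and the 2 with the smallest unadjusted p in each direction. The members, the lists and the tests were chosen with earlier results of these data known. One of the markers of megakaryocyte progenitors is not reported here and was left out of their sum.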

Additional observations from a re-analysis of the deposited data

Results flagged for a closer look

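In a group of 4 libraries, a value is listed here when the gap between the highest or lowest library and its neighbour takes up more of the group's range than Dixon's 95% critical value. Of 64 CD48hi groups of values examined, 2 met this, and chance alone marks about 1 in 20. Psma2 stood at 149 CPM in CD48hi replicate 3, while the other 3 CD48hi libraries lay between 66.2 and 77.3 CPM, a gap of 0.866 of the range. The summed level of the 19S non-ATPase subunits was 4236 CPM in CD48hi replicate 1, while the other 3 CD48hi libraries lay between 3041 and 3168 CPM, a gap of 0.894 of the range. CD48-/lo MkPs have 3 libraries and were not examined in this way.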

How the results depend on the processing

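No member passed an adjusted p of 0.05 in edgeR under any scaling, filter, thinning or composition setting or without any single library, while DESeq2 called 4 members and limma voom 1, and a threshold of 0.1 called 0. Over all genes, edgeR called 32, against 57 with RLE scaling, 10 with no filter, 64 with the stricter filter, 59 after thinning, 187 at a threshold of 0.1 and 1 to 72 without 1 library, and DESeq2 called 1028 and limma voom 393. Leaving out CD48hi replicates 4 and 5 together, a setting chosen after seeing the data, left 0 genes called by edgeR (1798 at an unadjusted p under 0.05) and gave median log2 differences of -0.064 over all members, 0.14 for the alpha ring, 0.022 for structural beta subunits (1.13 under limma voom), -0.31 for constitutive catalytic subunits, -0.47 for the immunoproteasome, -0.21 for 19S non-ATPase subunits, 0.10 for base chaperones and -0.32 for core chaperones. It also turned the sign of Psmb5 (-0.31), Psmb6 (-0.47), Psmb9 (-0.47), Psmb10 (-0.16), Psmf1 (-0.11) and Psmg2 (-0.16). Signs near 0 turned elsewhere too. Psmb8 was at 0.31 under limma voom. Psmb9 and Psmb6 were at -0.056 and -0.013 with RLE scaling, -0.058 and -0.015 in DESeq2, and -0.091 and -0.053 without ribosomal protein, haemoglobin and mitochondrial genes, and Psmb9 was at -0.0092 with no filter and -0.025 with the stricter filter. Without 1 library, log2 differences ranged over -0.30 to 0.32 for Psmb8, -0.21 to 0.20 for Psmb9, -0.078 to 0.26 for Psmb5, -0.22 to 0.52 for Psmb6, -0.030 to 0.37 for Psme3 and -0.11 to 0.43 for Psmf1, the median of the constitutive catalytic subunits over -0.078 to 0.52, and Psma8, the tested tissue-restricted subunit, ranged over 0.43 to 0.93, the lowest without CD48-/lo replicate 1. Irf8 missed the threshold with no filter (edgeR adjusted p = 0.0591), without CD48hi replicate 3 (0.071), without CD48hi replicate 5 (0.0732) and without CD48-/lo replicate 4 (0.136). Without division by length, 4 of the 10 highest members stayed among the highest 10. Same-numbered libraries did not deviate together (correlations across genes of -0.0797, -0.145 and -0.0332), and the main test did not pair them. With so few libraries, these correlations cannot show whether a number stands for a shared animal, which the labels do not state. With replicates 1, 3 and 4 as a block, 0 members and 29 genes were called, and under this pairing Psmb9 was at -0.14 and Psmb6 at -0.050. The causes of these shifts were not tested. Psmb11 was the only member under the filter on low counts, and its limits from 0 counts are given with its values.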
